A study of Mus musculus with 8 samples.

Results

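The genes described here are 60 components and targets of WNT signalling, grouped by role into 19 WNT ligands, 15 receptors, 9 secreted inhibitors, 6 R-spondins and their Lgr receptors, and 11 target genes. They were listed by name as members of the pathway, with no threshold on their values but with earlier results of these data known. Of the 60, 59 were measured, among 19356 genes in all. Tcf7 was not used here. Each gene is represented by its brightest probe set that carries exactly 1 gene symbol.

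RNA from the caudal urogenital ridge, the tissue from which the kidney primordium arises, was dissected from E10.75 mouse embryos of mixed genetic background and hybridised to 8 arrays. There were 4 replicates of Sox11-/- (knockout) ridges and 4 of wildtype ridges, which the labels call independent, and no group was treated. The sources used here do not say whether a replicate was a single embryo or a pool, or how the Sox11 allele was made. Values are log2 RMA signals. RMA gives all arrays nearly the same distribution, so a difference of 1 is a doubling of signal relative to the other genes on the arrays, and differences near the low end of the range are compressed. A signal also depends on how well its probes hybridise, so changes are taken between arrays and not between genes. A gene's rank by signal is only a rough guide to its level.

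WNT ligands are secreted, lipid-modified glycoproteins. They bind Frizzled receptors together with Lrp5 or Lrp6, which stops the breakdown of beta-catenin and lets it act with TCF and LEF factors on target genes, or they act through Ror and Ryk receptors and the planar polarity proteins without beta-catenin. R-spondins, bound to Lgr4, Lgr5 or Lgr6, raise the response by clearing the ubiquitin ligases Znrf3 and Rnf43, which remove Frizzleds from the cell surface. In the mouse kidney primordium, Wnt9b is made by the nephric duct and ureteric bud and induces nephrons, Wnt4 acts after it in the forming nephron, Wnt11 is made at the bud tip, and Wnt5a with Ror2 shapes the caudal intermediate mesoderm.

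Pearson's r between arrays was 0.987 to 0.995; it was taken across genes, and genes are not independent replicates. Sox11 signal lay between 8.93 and 9.24 on the knockout arrays and between 11.72 and 11.86 on the wildtype arrays, so the genotype labels held for all 8 arrays. On the first principal component, wildtype replicate 1 at -3.50 was the wildtype array nearest to the knockout arrays, which began at 5.23, while the other wildtype arrays lay at or below -11.9. Y-linked genes gave signal on knockout replicates 3 and 4 and on wildtype replicate 1. Of 7 marker genes of the metanephric and intermediate mesoderm, all lay above the median signal of all genes, among them Osr1, Pax2, Wt1 and Six2, and so did 5 of 6 nephric duct markers. All 6 tail bud and presomitic markers measured lay below that median. These positions also depend on how well each gene's probes hybridise, so they do not show how much of each tissue was present. Six2, a nephron progenitor factor, fell to 9.97 ± 0.15 in knockout, against 10.45 ± 0.16 in wildtype (SD, n = 4 each, limma adjusted p = 0.0437).

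In knockout ridges Fzd3 and Lef1 were lower and Lgr5 was higher, and no other measured WNT gene passed the test at an adjusted p under 0.05. Fzd3 encodes a Frizzled receptor known for its part in planar polarity and in the guidance of axons. Lef1 encodes a DNA-binding factor that takes beta-catenin to target genes and is itself a WNT target. Lgr5 encodes an R-spondin receptor and is a WNT target in several stem cell compartments. These 3 of 59 genes (5.08%) were called by limma with Benjamini-Hochberg adjustment over all genes. Over all 19356 genes 1.44% were called, 0.362% higher and 1.08% lower in knockout. In a fit of only the 9678 genes above the median signal, 349 were called. The 3 called WNT genes all lie above that median, as do 32 of the 59. At an unadjusted p under 0.05 there were 16 of 59 (27.1%), against 16.7% of all genes. The knockout and wildtype arrays did not overlap for 9 of 59 (15.3%), against 10.5% of all genes. Of these 9, the knockout arrays lay above for 4 (4.04% of all genes) and below for 5 (6.47% of all genes). As the members were listed with earlier results of these data known, these shares are not a test of the pathway. The median change of the 59 genes was 0.05 on the log2 scale, with 37 above 0, and the median of all genes was -0.000496, with 49.9% above 0. None of the 59 lies on chromosome 12, which carries Sox11, in RefSeq's annotation.

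**Figure D1:**
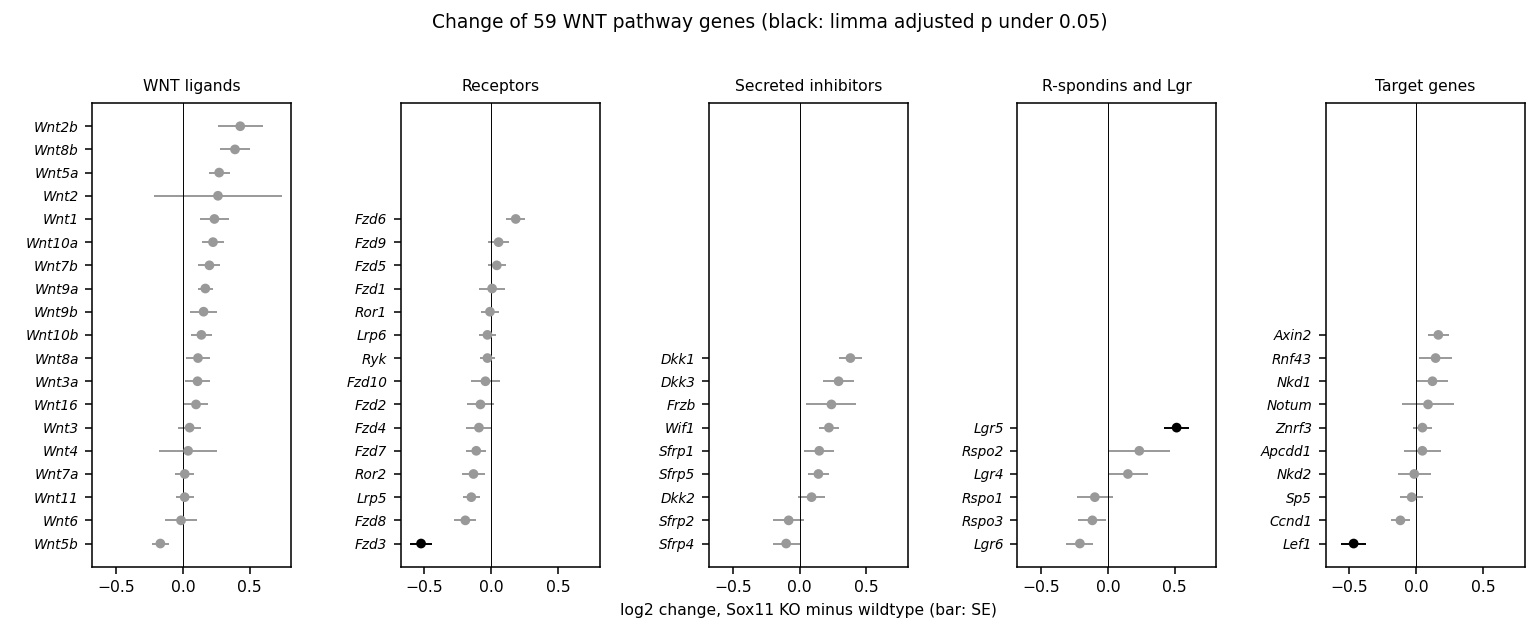
Log2 change (x axis, Sox11 knockout minus wildtype, bars are SE, 4 arrays per genotype) of the 59 WNT genes by role. Fzd3 and Lef1 at the low end and Lgr5 at the high end are the 3 genes in black that passed an adjusted p of 0.05, and 17 of the 19 ligands lie above 0.

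Fzd3 (probe set 10420846) had log2 signals of 9.51, 9.69, 9.69 and 9.85 in knockout ridges, against 10.24, 10.09, 10.19 and 10.32 in wildtype ridges. Every knockout array lay below every wildtype array. Fzd3 averaged 9.69 ± 0.14 in knockout and 10.21 ± 0.09 in wildtype (SD, n = 4 each), 1.44-fold lower. The log2 change was -0.53 with an SE of 0.08 (limma adjusted p = 0.0157). Its call held when any 1 array was left out (limma adjusted p from 0.0183 to 0.0481) and was lost only without moderation of the variances (adjusted p = 0.0785).

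Lef1 (probe set 10496091) had 8.40, 8.44, 8.50 and 8.49 in knockout ridges, against 8.72, 8.85, 9.15 and 8.99 in wildtype ridges. The knockout arrays were tightly grouped below the wildtype arrays, which were more spread. Lef1 averaged 8.46 ± 0.05 in knockout and 8.93 ± 0.19 in wildtype (SD, n = 4 each), 1.38-fold lower. Its log2 change was -0.47 with an SE of 0.09 (limma adjusted p = 0.0379). This call was lost when any array but wildtype replicate 1 was left out (limma adjusted p from 0.0672 to 0.112) and was stronger without wildtype replicate 1 (0.0220). The call was also lost after a further quantile normalization (limma adjusted p = 0.0633), with the Y-linked genes' signal in the model (0.0691) and without moderation (0.118).

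Some markers of somites and of neural tissue, cells that a dissected ridge may hold, were lower on the same arrays as Fzd3 and Lef1. Of 7 somite markers Meox2 and Uncx fell past the threshold and 5 did not pass, and 4 changes were below 0 and 3 above (median -0.04). The mean signal of the somite list (log2 of the mean linear signal) was 7.74 to 8.09 on the knockout arrays and 8.32 to 8.55 on the wildtype arrays. Of 8 neural markers Dcx, which marks newly born neurons, fell and 7 did not pass, with 5 changes below 0 and 3 above (median -0.05). The mean signal of the neural list was 7.16 to 7.49 in knockout and 7.52 to 7.97 in wildtype. The list of the ridge's own metanephric and intermediate mesoderm was lower too, with 6 of 7 changes below 0 (median -0.21). All 7 lay above the median signal of all genes, where 37% of genes had a change above 0. The mean signal of this list was 10.67 to 10.79 in knockout and 10.84 to 10.93 in wildtype. The mean signal of none of these 3 lists overlapped between genotypes. Of all single genes 10.5% did not overlap either, but a single gene and a mean over a list are unlike measures. A mean of linear signals is set mostly by a list's brightest genes. Median differences of a list's genes from their wildtype means did overlap for somites (-0.25 to 0.08 in knockout, -0.06 to 0.06 in wildtype). They overlapped for the neural list too (-0.15 to -0.05 and -0.07 to 0.11). For the mesoderm list they did not (-0.28 to -0.18 and -0.05 to 0.11). Of 7 erythroid markers 6 had changes below 0 and none passed, and the mean signal of that list overlapped, at 11.12 to 11.56 in knockout and 10.84 to 11.59 in wildtype. The part of these cells in the lower Fzd3 and Lef1 was not tested, and in dissected tissue fewer cells of a type cannot be told apart from less RNA per cell.

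Lgr5 (probe set 10372503) had 8.16, 7.97, 8.33 and 8.11 in knockout ridges, against 7.68, 7.51, 7.79 and 7.53 in wildtype ridges. All knockout arrays were above all wildtype arrays. Lgr5 averaged 8.14 ± 0.15 in knockout and 7.63 ± 0.13 in wildtype (SD, n = 4 each), 1.43-fold higher. Its log2 change was 0.51 with an SE of 0.09 (limma adjusted p = 0.0265). Its call remained without knockout replicate 2 or wildtype replicate 3 (limma adjusted p = 0.0238 and 0.0309). Without each of the other 6 arrays the adjusted p was 0.0524 to 0.0823, with the Y-linked genes' signal in the model it was 0.0505 and without moderation 0.109.

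Nephric duct markers lay higher in the same arrays. Ret, the receptor tyrosine kinase of the duct, rose past the threshold with a log2 change of 0.41 and an SE of 0.07 (limma adjusted p = 0.0220), and the other 5 of the 6 measured duct markers did not pass, although all 6 changes were above 0. The call of Ret was lost in 6 of 20 alternatives, among them leaving out knockout replicate 1 (limma adjusted p = 0.0764). The largest change of the list was 0.63, of a marker that did not pass. For 4 of the 6 the knockout arrays lay above all wildtype arrays, as they did for 4.04% of all genes. The mean signal of the duct list was 10.18 to 10.37 in knockout and 9.71 to 10.10 in wildtype, without overlap. Median differences of its genes from their wildtype means did not overlap either (0.25 to 0.38 in knockout, -0.07 to 0.11 in wildtype). The 6 surface ectoderm markers also all had changes above 0 (median 0.20), and none passed. Their mean signal was 9.12 to 9.32 in knockout and 8.95 to 9.13 in wildtype, just overlapping. Limb bud markers had a median of 0.20 as well, with 2 changes above 0 and 2 below. The part of the duct or of these other cells in the higher Lgr5 was not tested.

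**Figure D2:**
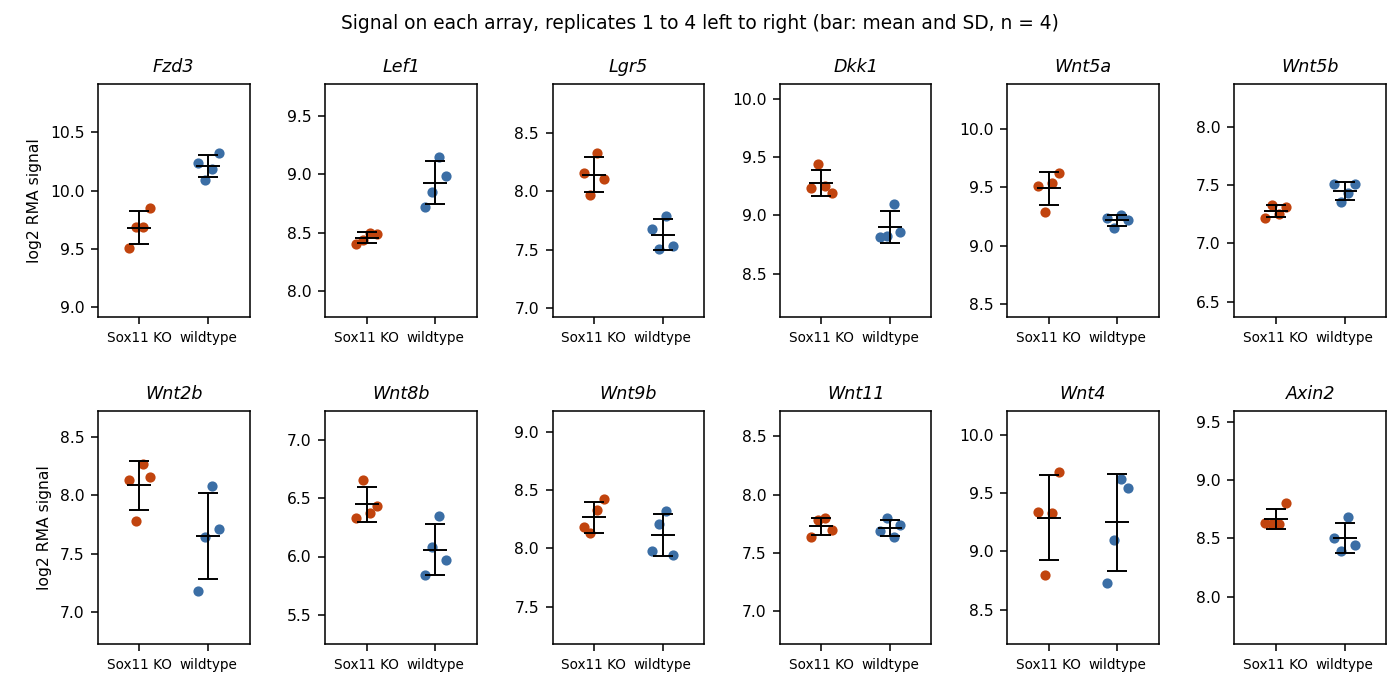
Log2 RMA signal (y axis, each panel spanning 2 log2 units) of 12 WNT genes on each of 4 Sox11 knockout arrays (left) and 4 wildtype arrays (right), replicates 1 to 4 from left to right within a genotype, with mean and SD. Fzd3, Lef1, Lgr5, Dkk1, Wnt5a and Wnt5b separate the genotypes, whereas Wnt4 and Wnt11 overlap fully.

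The other Lgr receptors and the R-spondins did not pass. Lgr4 averaged 11.04 ± 0.23 in knockout and 10.89 ± 0.29 in wildtype (SD, n = 4 each), a change of 0.15 (SE 0.15, limma adjusted p = 0.643). Lgr6 had a change of -0.21 (SE 0.10, limma adjusted p = 0.330), and its arrays overlapped. The R-spondin genes Rspo1, Rspo2 and Rspo3 had changes of -0.10, 0.24 and -0.12, with limma adjusted p-values from 0.607 to 0.749. Over these 6 genes the median change was 0.03, with 3 above 0 and 3 below.

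Dkk1, which encodes a secreted protein that blocks Lrp5 and Lrp6 and is a WNT target, came next after the 3 called genes. It had 9.23, 9.44, 9.25 and 9.19 in knockout ridges, against 8.81, 8.82, 9.10 and 8.86 in wildtype ridges. All knockout arrays were above all wildtype arrays, and wildtype replicate 3 stood nearest to them. Dkk1 averaged 9.28 ± 0.11 in knockout and 8.90 ± 0.13 in wildtype (SD, n = 4 each), a change of 0.38 (SE 0.09) with a limma adjusted p of 0.0633, just outside the threshold. It passed without wildtype replicate 3 (limma adjusted p = 0.0423), with genes above the 25th percentile of signal (0.0499) or above the median (0.0370), and with trended and robust moderation (0.0406).

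**Figure D3:**
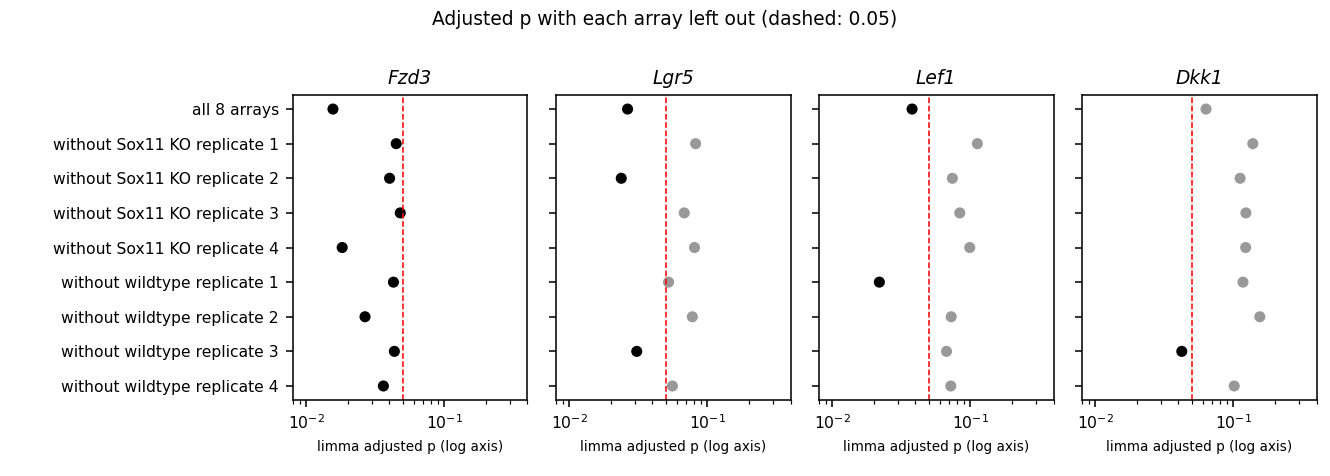
Limma adjusted p (x axis, log scale) of Fzd3, Lgr5, Lef1 and Dkk1 on all 8 arrays (top row) and with each array left out, the dashed line marking 0.05. Fzd3 stays left of the line throughout (0.0183 to 0.0481), Lgr5 without 2 of the arrays, Lef1 and Dkk1 without 1 each.

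The DNA just upstream of Lef1 and Dkk1 is shown because both genes are known WNT targets and Sox11 encodes a DNA-binding factor. The letters read by TCF/LEF and SOX proteins are therefore of interest there. Lef1 was called and Dkk1 was not. For the other called genes, Fzd3 and Lgr5, no upstream sequence was available here, so they were not searched. Windows of 250 bases before the RefSeq transcript starts (GRCm38.p6) are printed 5′ to 3′ on the gene's strand, in lower case, with capitals where a motif was found. The TCF/LEF motif searched was CTTTGAA or CTTTGAT and the SOX motif ACAAAG or ACAATG, on both strands, and no word of either motif contains a word of the other. For Lef1, RefSeq gives 4 starts on chromosome 3, and the most upstream window (chr3:131110047-131110296, plus strand) and the most downstream, at a start inside the gene (chr3:131156044-131156293, plus strand), are given. Dkk1 has 1 start, on chromosome 19 (chr19:30549497-30549746, minus strand).
Lef1, most upstream start: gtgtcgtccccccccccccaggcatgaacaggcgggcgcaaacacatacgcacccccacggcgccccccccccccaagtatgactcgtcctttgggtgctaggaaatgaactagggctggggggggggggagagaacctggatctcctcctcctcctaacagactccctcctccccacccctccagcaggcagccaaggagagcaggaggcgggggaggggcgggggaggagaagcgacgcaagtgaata
Lef1, most downstream start: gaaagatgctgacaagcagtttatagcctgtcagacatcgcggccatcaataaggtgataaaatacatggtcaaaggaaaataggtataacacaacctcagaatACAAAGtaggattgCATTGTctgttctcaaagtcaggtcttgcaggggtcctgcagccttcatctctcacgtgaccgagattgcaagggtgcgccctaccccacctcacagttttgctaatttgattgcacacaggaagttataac
Dkk1: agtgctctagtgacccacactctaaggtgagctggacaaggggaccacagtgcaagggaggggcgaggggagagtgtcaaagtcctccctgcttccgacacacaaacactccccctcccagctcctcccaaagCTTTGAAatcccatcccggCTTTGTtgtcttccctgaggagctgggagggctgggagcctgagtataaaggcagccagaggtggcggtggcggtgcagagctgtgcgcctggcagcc

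Of the 4 Lef1 windows only 1, the most downstream, held either motif. It held the SOX motif on the sense strand beginning 146 bases before the start and on the antisense strand beginning 132 bases before it. The Dkk1 window held the TCF/LEF motif CTTTGAA beginning 117 bases before the start and the SOX motif on the antisense strand beginning 98 bases before it. These matches are a description of the letters and not of binding. Among all 32851 windows of this length in the table, 7.48% held the TCF/LEF motif and 25.2% the SOX motif. Of the measured WNT genes 39 had a window, 46 windows in all. The TCF/LEF motif was in 4 of the 46 (8.70%), those of Dkk1, Sp5, Wnt11 and Wnt5b, and the SOX motif in 11 (23.9%), shares near those of all windows.

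Among the ligands no gene passed over all genes. Of 19 measured ligands 17 had a change above 0 and 2 below, with a median of 0.14 and a range from -0.17 to 0.43. At an unadjusted p under 0.05, 6 were higher and 1 was lower, where 7.29% of all genes were higher and 9.38% were lower. The direction of change depended on signal across the whole table. Of the genes at or below the 25th percentile of signal 64.2% had a change above 0, and of those above the median 37% did. The 9 ligands at or below the 25th percentile of signal all had changes above 0 (median 0.11, all such genes 0.05). The 5 ligands above the median signal, Wnt2b, Wnt4, Wnt5a, Wnt9b and Wnt11, also all had changes above 0 (median 0.15, all such genes -0.04). Those of Wnt4 (0.04, SE 0.22) and Wnt11 (0.01, SE 0.07) were smaller than their SE. Whether the compression of low signals plays a part in the changes of the dim ligands was not tested.

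**Figure D4:**
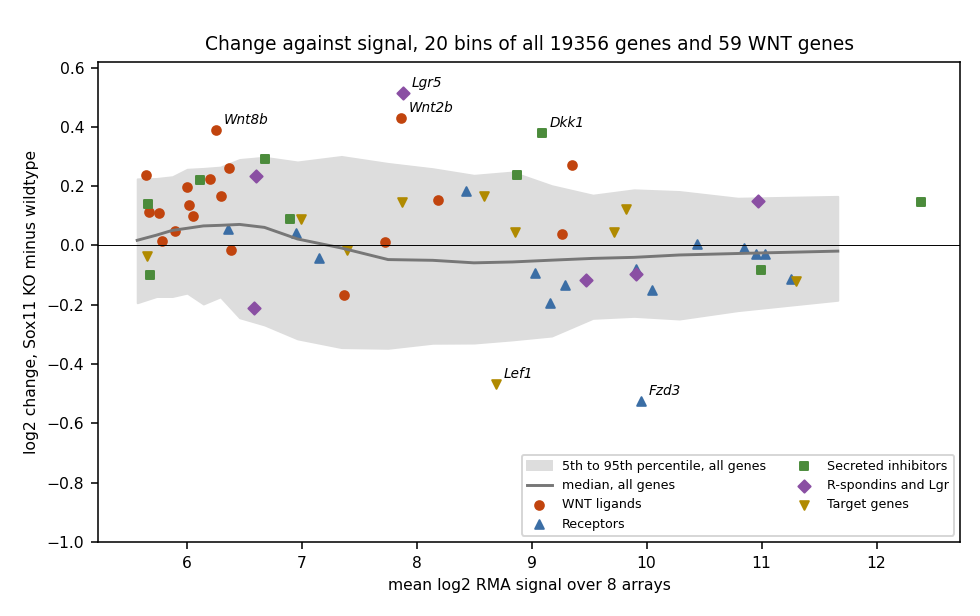
Log2 change (y axis, Sox11 knockout minus wildtype) against mean log2 RMA signal over the 8 arrays (x axis) for the 59 WNT genes by role, over the 5th to 95th percentile and the median of all 19356 genes in 20 bins of signal. The median of all genes lies above 0 at low signal and below 0 at high signal, and Lgr5, Wnt2b, Wnt8b, Dkk1, Lef1 and Fzd3 are among the genes outside the band.

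Wnt5a, a ligand that acts mostly without beta-catenin, had 9.51, 9.29, 9.54 and 9.62 in knockout ridges, against 9.24, 9.15, 9.26 and 9.22 in wildtype ridges. The genotypes did not overlap, with a change of 0.27 (SE 0.08, limma adjusted p = 0.128). Its close relative Wnt5b had a change of the opposite sign. Wnt5b had 7.22, 7.33, 7.25 and 7.31 in knockout ridges, against 7.51, 7.35, 7.43 and 7.51 in wildtype ridges. The change was -0.17 (SE 0.07, limma adjusted p = 0.234), again without overlap. Ror2, a receptor of Wnt5a, had a change of -0.13 (SE 0.09, limma adjusted p = 0.465).

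Wnt2b had 8.13, 7.78, 8.27 and 8.16 in knockout ridges, against 7.18, 7.64, 8.08 and 7.71 in wildtype ridges. It had the largest fitted change among the ligands, 0.43, but also a wide error (SE 0.17, limma adjusted p = 0.240), and wildtype replicate 3 lay within the knockout range. Wnt8b, a ligand best known from the forebrain, had a change of 0.39 (SE 0.11, limma adjusted p = 0.127). Its signal lay between 6.33 and 6.66 in knockout and between 5.84 and 6.35 in wildtype, near the low end of the range, and the genotypes just overlapped. Wnt9a lay between 6.35 and 6.42 in knockout and between 6.17 and 6.25 in wildtype, which did not overlap, with a change of 0.17 (SE 0.06, limma adjusted p = 0.189). The remaining ligands with an unadjusted p under 0.05 were Wnt10a at 0.23 (SE 0.08, limma adjusted p = 0.220) and Wnt7b at 0.20 (SE 0.08, limma adjusted p = 0.262), both with arrays that overlapped.

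The ligands that induce the nephron and act in the bud did not pass. Wnt9b had 8.18, 8.13, 8.33 and 8.42 in knockout ridges, against 7.98, 8.21, 8.32 and 7.94 in wildtype ridges. The groups overlapped, with a change of 0.15 (SE 0.10, limma adjusted p = 0.470) and a 95% interval from -0.07 to 0.38. Wnt11 had 7.64, 7.78, 7.80 and 7.70 in knockout ridges, against 7.69, 7.80, 7.64 and 7.74 in wildtype ridges. Its change of 0.01 had a 95% interval from -0.14 to 0.16 (limma adjusted p = 0.939), the narrowest of these kidney ligands. For Wnt4 the interval was wide, from -0.44 to 0.52 around a change of 0.04 (limma adjusted p = 0.944).

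Genes tied to Wnt9b and Wnt11 in the kidney were examined from lists of their own. Pax8, Fgf8 and Lhx1, which act with Wnt4 in the induced nephron, had changes of -0.02, -0.20 and 0.42, with limma adjusted p-values of 0.940, 0.308 and 0.0577. Lhx1 is also a nephric duct gene. Wnt11 and Ret support each other's expression at the bud tip. Besides Ret, which rose, Etv5, an ERK-responsive factor downstream of Ret, fell, with a log2 change of -0.40 and an SE of 0.08 (limma adjusted p = 0.0368). The call of Etv5 was lost in 12 of 20 alternatives, among them leaving out any 1 array but wildtype replicate 1 (limma adjusted p from 0.0621 to 0.101) and averaging its probe sets (0.0801). Its relative Etv4 had a change of -0.54 with a wider error (SE 0.14, limma adjusted p = 0.0960) and arrays that did not overlap. Gdnf (-0.06) and Gfra1 (0.17) did not pass (limma adjusted p = 0.763 and 0.507).

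Wnt4 varied widely within each genotype. It had 9.34, 8.80, 9.33 and 9.68 in knockout ridges, against 8.73, 9.10, 9.62 and 9.54 in wildtype ridges. Knockout replicate 2 and wildtype replicate 1 were the lowest of their groups, and these were also the arrays with the lowest signal of Lhx9, a gonad and coelomic epithelium gene, at 6.26 in knockout replicate 2 and 7.49 in wildtype replicate 1. Rspo1, an R-spondin of the coelomic epithelium and early gonad, was lowest on these arrays as well, at 9.65 on each. The mean signal of the 5 coelomic and gonadal markers was 8.74 to 9.41 in knockout and 8.92 to 9.53 in wildtype, and none of the 5 passed.

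Wnt2 spread the most among the members. It had 6.95, 7.96, 5.48 and 5.62 in knockout ridges, against 5.75, 6.73, 6.53 and 5.96 in wildtype ridges. Knockout replicates 1 and 2 and wildtype replicates 2 and 3 were the high arrays, so the spread did not follow genotype (change 0.26, SE 0.48, limma adjusted p = 0.815). The hindlimb gene Tbx4 was likewise highest on knockout replicate 2 at 9.16 and lowest in wildtype on replicate 1 at 6.87, although it was high on knockout replicate 3 at 8.30, where Wnt2 was low. Rspo2, a limb bud R-spondin, had 6.70, 7.35, 6.81 and 6.03 in knockout ridges, against 6.47, 6.78, 6.23 and 6.46 in wildtype ridges, and was also highest on knockout replicate 2. None of the 4 limb bud markers passed. Their mean signal was 7.71 to 8.52 in knockout and 7.65 to 8.32 in wildtype. Median differences of these 4 genes from their wildtype means were 0.49, 0.49, 0.21 and -0.31 on knockout replicates 1 to 4. On wildtype replicates 1 to 4 they were -0.41, 0.53, 0.33 and -0.44. Tbx4 was named after its values were seen.

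The remaining ligands, Wnt1, Wnt3, Wnt3a, Wnt6, Wnt7a, Wnt8a, Wnt10b and Wnt16, had changes between -0.01 and 0.24 with limma adjusted p-values of at least 0.304. Of these Wnt1, Wnt3a, Wnt7a and Wnt8a had mean signals below the 10th percentile of all genes, where differences are compressed.

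Among receptors most changes lay below 0. Of 15 measured receptors Fzd3 fell and 14 did not pass, and 4 had a change above 0 and 11 below, with a median of -0.04. Of the 12 above the median signal, 2 had a change above 0 (median -0.09), where 37% of all such genes did. At an unadjusted p under 0.05 there were 3 lower and 1 higher, where 9.38% of all genes were lower and 7.29% higher.

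Besides Fzd3, the lower ones were Fzd8 and Lrp5. Fzd8 had 9.07, 9.08, 9.15 and 8.97 in knockout ridges, against 9.22, 9.19, 9.16 and 9.47 in wildtype ridges. The groups met but did not overlap, with a change of -0.19 (SE 0.08, limma adjusted p = 0.267). Lrp5, a beta-catenin pathway co-receptor, lay between 9.91 and 10.01 in knockout and between 10.01 and 10.18 in wildtype, where the ranges met without overlap, with a change of -0.15 (SE 0.06, limma adjusted p = 0.278). Its partner gene Lrp6 averaged 11.02 ± 0.07 in knockout and 11.05 ± 0.06 in wildtype (SD, n = 4 each), with a 95% interval of the difference from -0.17 to 0.12 (limma adjusted p = 0.857).

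Fzd6, a planar polarity Frizzled that acts with Fzd3 in mouse neural tube closure and hair cell orientation, was the receptor above 0 at an unadjusted p under 0.05. It lay between 8.38 and 8.59 in knockout and between 8.27 and 8.44 in wildtype, a change of 0.18 (SE 0.07, limma adjusted p = 0.236). Fzd7 averaged 11.20 ± 0.12 in knockout and 11.31 ± 0.08 in wildtype (SD, n = 4 each, limma adjusted p = 0.486). Ror1 and Ryk, receptors outside the beta-catenin pathway, had changes of -0.01 and -0.03 with limma adjusted p-values of 0.959 and 0.833. The other Frizzleds, Fzd1, Fzd2, Fzd4, Fzd5, Fzd9 and Fzd10, had changes between -0.09 and 0.06 with limma adjusted p-values of at least 0.651.

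Secreted inhibitors lay mostly above 0. Of 9 measured, 7 had a change above 0 and 2 below, with a median of 0.15, and none passed over all genes, while 3 were higher at an unadjusted p under 0.05, as were 7.29% of all genes. These were Dkk1, described above, Wif1, which binds WNT ligands, and Dkk3, a relative of Dkk1 that does not act on Lrp co-receptors in the same way. Wif1 lay between 6.05 and 6.33 in knockout and between 5.93 and 6.06 in wildtype, a change of 0.22 (SE 0.08, limma adjusted p = 0.186) at a low signal. Dkk3 lay between 6.70 and 7.04 in knockout and between 6.34 and 6.85 in wildtype, a change of 0.29 (SE 0.12, limma adjusted p = 0.240).

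Secreted Frizzled-related proteins, which hold ligands away from receptors, did not pass. Sfrp1 averaged 12.46 ± 0.08 in knockout and 12.31 ± 0.24 in wildtype (SD, n = 4 each), a change of 0.15 (limma adjusted p = 0.530). Sfrp2 had a change of -0.08 (limma adjusted p = 0.750) and Frzb 0.24 with a wide error (SE 0.19, limma adjusted p = 0.546). Sfrp4, Sfrp5 and Dkk2 had changes between -0.10 and 0.14 with limma adjusted p-values from 0.401 to 0.695, and Sfrp4 and Sfrp5 had low signals.

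Target genes did not move together. Of 10 measured Lef1 fell and 9 did not pass, 6 had a change above 0 and 4 below, and the median was 0.05. Axin2, a negative feedback gene widely used as a readout of beta-catenin signalling, had 8.63, 8.62, 8.62 and 8.80 in knockout ridges, against 8.50, 8.39, 8.68 and 8.44 in wildtype ridges. Wildtype replicate 3 lay among the knockout arrays, and the change of 0.17 (SE 0.08) had a limma adjusted p of 0.328 and a 95% interval from -0.01 to 0.34. The interval of Lef1, from -0.67 to -0.27, lay wholly below 0 and that of Axin2 reached above 0, but no test compared the genes.

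Other feedback genes had small changes. Nkd1 (0.12), Nkd2 (-0.01), Notum (0.09), Rnf43 (0.15), Znrf3 (0.05) and Apcdd1 (0.05) had limma adjusted p-values from 0.576 to 0.967. Ccnd1, a cell cycle gene, lay between 11.16 and 11.31 in knockout and between 11.26 and 11.46 in wildtype, a change of -0.12 (SE 0.07, limma adjusted p = 0.424). Sp5, a transcription factor gene driven by WNT signals in the tail bud, averaged 5.64 ± 0.02 in knockout and 5.67 ± 0.17 in wildtype (SD, n = 4 each), near the low end of the range.

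The rest of the pathway was taken from lists of 95 further genes. Besides Ret and Etv5 none passed over all genes, where 1.44% were called. Secretion and uptake genes had 0 of 11 called, other inhibitors 0 of 13, dishevelled and beta-catenin destruction complex genes 0 of 18, nuclear cofactors 0 of 12, planar polarity genes 0 of 16 and other targets 0 of 17. At an unadjusted p under 0.05 these 6 lists had 2, 1, 4, 3, 4 and 3 genes, and 16.7% of all genes were under it.

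Dishevelled and destruction complex genes had a median change of -0.04, with 5 of 18 above 0 and 13 below. Of the 18, 17 lay above the median signal, where 37% of all genes had a change above 0. Csnk1e, a kinase that acts on dishevelled, had 10.56, 10.57, 10.56 and 10.42 in knockout ridges, against 10.78, 10.79, 10.80 and 10.78 in wildtype ridges. The wildtype arrays were nearly equal and the knockout arrays all lower, with a change of -0.26 (SE 0.06, limma adjusted p = 0.0723). Apc2, a relative of the Apc scaffold expressed chiefly in neural tissue, had 7.35, 7.18, 7.41 and 7.29 in knockout ridges, against 7.68, 7.73, 7.57 and 7.50 in wildtype ridges, with a change of -0.31 (SE 0.08, limma adjusted p = 0.0845). Planar polarity genes, the setting in which Fzd3 is best known, had a median change of -0.06 with 5 of 16 above 0 and 11 below, and 15 of the 16 lay above the median signal. At an unadjusted p under 0.05 there were 3 lower and 1 higher, where 9.38% of all genes were lower and 7.29% higher.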

How the data were processed

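RNA from 4 Sox11-/- and 4 wildtype caudal urogenital ridges was treated to reduce ribosomal RNA, amplified and labelled with Affymetrix kits, per the labels' protocols. The deposited table holds 1 log2 signal per probe set and array, made by the authors with RMA, with Partek also named, per the submitters' processing notes. The sources used here do not give versions, settings or filters. The log2 scale was read from the values themselves (4.30 to 14.62, array medians 7.29 to 7.31). No 2 arrays were identical. Arrays carry no molecule count, so their number limits the precision. In the main fit each p-value sets the genotype difference against the spread between replicates, moderated with information from all genes. The labels call the replicates independent without saying whether they were separate animals, so that spread may not be the spread between animals.

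Of 27478 probe sets 21103 had 1 gene symbol in the platform's annotation, 1531 several and 4844 none. Symbols were checked by gene identifier against RefSeq's GRCm38.p6 table (80 without an entry, 0 changed). The brightest probe set per gene was kept, which gave 19356 genes without a filter on signal. Of the members only Wnt4 had more than 1 probe set.

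The knockout and wildtype arrays were fitted in R 4.3.3 with limma 3.58.1 (lmFit, eBayes without trend, two-sided, Benjamini-Hochberg over all genes, threshold 0.05), and changes are knockout minus wildtype. The fit was tested on simulated data. Intervals of a change are 95% intervals from that fit. Promoter windows come from RefSeq's table of starts, cut to the 250 bases before each start. Figures were drawn with matplotlib 3.10.9.

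The members and lists were chosen with earlier results of these data known. Genes named are those past the threshold, the 14 members with the lowest p, 12 chosen for their part in the kidney or pathway, and the 3 brightest and 3 dimmest of each role, with the rest given by range. Other pathway genes named are those called and the 6 with the lowest p, and further ones named (Pax8, Fgf8, Gdnf, Gfra1 and single marker genes) were chosen after their values were seen. Fzd8, Lrp5 and some members given with values for every array were likewise chosen after their values were seen. Alternatives were 2 normalizations, 2 signal filters, 2 treatments of probe sets, 2 of moderation, weights per array, a block on replicate number, Y-linked signal as a covariate, a threshold of 0.10, and leaving out each array.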

Additional observations from a re-analysis of the deposited data

Results flagged for a closer look

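Among 118 groups of 4 arrays (59 genes in 2 genotypes) 6 held an array set far apart from the other 3 by Dixon's criterion, and chance flags about 1 group in 20. In knockout ridges Wnt3 was 5.82 on replicate 3, against 5.94 to 5.96 on the others, Wnt10a was 6.16 on replicate 2, against 6.36 to 6.39, and Axin2 was 8.80 on replicate 4, against 8.62 to 8.63. In wildtype ridges Lrp6 was 10.96 on replicate 1, against 11.07 to 11.08, Nkd1 was 9.45 on replicate 1, against 9.82 to 9.90, and Dkk1 was 9.10 on replicate 3, against 8.81 to 8.86. Without wildtype replicate 3 the change of Dkk1 was 0.45 (limma adjusted p = 0.0423).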

How the results depend on the processing

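Of the 59 members, 1 was called higher and 2 lower in knockout, and these counts were the same under median centring, with every probe set tested, with probe sets of a gene averaged and with array weights. The count called higher was 2 with genes above the 25th percentile of signal, above the median signal, with trended and robust moderation and at a threshold of 0.10. It was 0 without moderation and with Y-linked signal as a covariate. The count called lower was 1 after a further quantile normalization and with Y-linked signal, and 0 without moderation, where 55 genes were called in all. Leaving out each array gave 0 to 2 higher and 1 to 2 lower. With the replicate number as a block the counts were again 1 and 2, while 166 genes were called in all, against 279 without it. The labels do not say that a number marks a shared litter. Same-numbered arrays correlated in their deviations at -0.17 to 0.09, and differently numbered arrays at -0.24 to 0.24. These correlations cannot show whether a number marks anything shared. Of 831 values of 43 named members under the alternatives 18 turned sign, all on leaving out an array and none of a called gene. The leave-one-out ranges were -0.13 to 0.20 for Wnt4, -0.0134 to 0.0425 for Wnt11, -0.0578 to 0.00329 for Lrp6, -0.12 to 0.0471 for Fzd10, -0.15 to 0.0174 for Sfrp2, -0.12 to 0.11 for Nkd2, -0.0843 to 0.24 for Notum, -0.0917 to 0.0227 for Sp5 and -0.20 to 0.0340 for Rspo1. Of the other pathway genes 1 was called higher and 1 lower. The count called higher was 2 with genes above the 25th percentile and at a threshold of 0.10, 0 without moderation, and 0 to 2 on leaving out an array. The count called lower was 2 above the median signal and with trended and robust moderation, 4 at 0.10, 0 to 1 on leaving out an array, and 0 without moderation, after quantile normalization, with averaged probe sets, with Y-linked signal and with the replicate number as a block. Over all alternatives the median change ranged from 0.09 to 0.17 for ligands, -0.09 to -0.03 for receptors, 0.12 to 0.21 for inhibitors, -0.01 to 0.09 for R-spondins and Lgr genes and -0.02 to 0.10 for targets, so the signs of the last 2 were not stable. The inhibitors' median was 0.19 under both signal filters. Etv5 lost its call in 12 of 20 alternatives and Ret in 6 of 20. The causes were not tested.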
